A study of Mus musculus with 3 samples.

Results

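The loci of the Egr and Nr4a immediate-early genes were described in ATAC-seq peak lists from the dentate gyrus of adult mice. In ATAC-seq, the enzyme Tn5 inserts sequencing adapters into DNA that is not packed away, and a called peak marks such an accessible stretch. The members were the peaks overlapping 7 windows of the mouse build mm9, 1 window of 65 to 110 kb for each of Egr1, Egr2, Egr3, Egr4, Nr4a1, Nr4a2 and Nr4a3. Peaks of different animals that overlapped by at least 1 bp were joined into 1 region. This gave 37 regions of 84529 in all, made of 31 peaks of 62912 in replicate 1, 36 of 68699 in replicate 2 and 26 of 48769 in replicate 3.

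The samples were 3 C57BL/6 mice aged 8 weeks, 1 library per mouse, whose dentate gyrus had been microdissected. Their common label is E24, whose meaning is not written out, and no genotype or agent is named for them. The series asks how chromatin accessibility changes when neurons are activated. With 1 group, no condition was compared, and the results give the open regions of these loci and their spread between animals. The tissue is a mixture of cell types, and a region open in few cells cannot be told apart from one weakly open in many. The tissue label was not checked against marker genes, since no peak was assigned to a gene and no gene level was measured.

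Egr genes encode zinc finger transcription factors and Nr4a genes encode orphan nuclear receptors. Both families are transcribed within minutes of a stimulus, without new protein synthesis, and so serve as markers of recently active neurons. Egr1 is a classical marker of induced long-term potentiation in the dentate gyrus. The DNA around such genes holds promoters and enhancers bound by factors that are in place before the stimulus, among them CREB, which binds the cAMP response element, and SRF, which binds the CArG box.

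To show promoter DNA of these genes, the RefSeq promoter table of the build GRCm38.p6 was searched, which holds 250 bases before to 50 bases after each gene start. It matched 5 of the 7 gene symbols. These sequences are on another build than the peaks, so no peak was placed on them. They run 5′ to 3′ on the strand of the gene, with every TGACG or its reverse complement CGTCA in capitals, and in Egr2 also the CArG box. TGACG is a part of the full cAMP response element TGACGTCA. Egr2 has 5 entries, of which 3 overlapping ones tied for the most matches, and the one with the lowest start position is printed.
Egr2, chr10:67537619-67537918, plus strand: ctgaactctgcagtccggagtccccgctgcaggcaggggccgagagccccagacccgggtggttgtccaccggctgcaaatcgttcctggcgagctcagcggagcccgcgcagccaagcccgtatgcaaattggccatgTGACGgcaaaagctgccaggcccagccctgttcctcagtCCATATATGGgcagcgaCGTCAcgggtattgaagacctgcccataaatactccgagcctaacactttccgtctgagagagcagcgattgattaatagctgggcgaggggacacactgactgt
Egr4, chr6:85513540-85513839, minus strand: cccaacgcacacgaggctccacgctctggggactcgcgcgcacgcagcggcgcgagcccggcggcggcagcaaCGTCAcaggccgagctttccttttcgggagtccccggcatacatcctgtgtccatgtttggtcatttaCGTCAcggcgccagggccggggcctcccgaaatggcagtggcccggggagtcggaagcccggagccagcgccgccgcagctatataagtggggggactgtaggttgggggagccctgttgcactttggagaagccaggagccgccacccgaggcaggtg
Nr4a1, chr15:101266596-101266895, plus strand: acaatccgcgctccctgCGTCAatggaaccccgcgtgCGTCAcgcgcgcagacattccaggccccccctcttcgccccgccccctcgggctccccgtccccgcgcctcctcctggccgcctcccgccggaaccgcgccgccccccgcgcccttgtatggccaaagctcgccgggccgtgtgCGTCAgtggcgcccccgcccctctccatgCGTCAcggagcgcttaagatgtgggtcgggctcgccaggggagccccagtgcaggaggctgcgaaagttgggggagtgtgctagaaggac
Nr4a2, chr2:57123954-57124253, minus strand: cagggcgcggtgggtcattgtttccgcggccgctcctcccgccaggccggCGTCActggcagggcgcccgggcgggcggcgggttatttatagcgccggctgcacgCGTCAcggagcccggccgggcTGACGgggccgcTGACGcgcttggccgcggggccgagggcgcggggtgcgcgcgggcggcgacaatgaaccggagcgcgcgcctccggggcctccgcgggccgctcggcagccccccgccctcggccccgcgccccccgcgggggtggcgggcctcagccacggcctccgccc
Nr4a3, chr4:48045055-48045354, plus strand: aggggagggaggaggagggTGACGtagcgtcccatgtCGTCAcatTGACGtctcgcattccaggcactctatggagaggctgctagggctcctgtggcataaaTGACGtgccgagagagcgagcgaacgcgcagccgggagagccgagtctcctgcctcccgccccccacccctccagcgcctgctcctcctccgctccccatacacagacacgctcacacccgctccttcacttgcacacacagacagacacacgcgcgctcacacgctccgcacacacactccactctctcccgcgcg

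A TGACG on either strand was found in 7 of the 9 entries of these genes, at least 1 entry for each of the 5, against 20.8% of all 32851 promoter entries. Of the 7, 3 are overlapping entries of Egr2, so the entries are not independent. The printed promoters of Nr4a1, Nr4a2 and Nr4a3 held 4 each, and those of Egr2 and Egr4 held 2 each. Base composition was not matched in this search. The printed promoters ranged from 60.0% G and C in Egr2 to 81.7% in Nr4a2, and the median of all entries was 52.7%. The full element TGACGTCA was found in 0 of the 9 entries and in 1.79% of all entries. A CArG box was found in 4 of the 9 entries, all of 1 gene, Egr2, and in 1.63% of all entries. The EGR site GCGNGGGCG, bound by the Egr proteins, was found in 2 of the 9 entries, those of Nr4a1 and Nr4a2, and in 5.55% of all entries. TATAAA matched in 1 of the 9 entries, that of Nr4a2, on the reverse strand, and in 13.6% of all entries. The Nr4a binding site AAAGGTCA (1.51% of all entries) and the AP-1 site TGANTCA (7.81%) matched in 0 of the 9 entries. These are matches of letters on both strands and do not show that a factor binds.

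All 3 animals shared 22 of the 37 regions, while 8 were found in 2 animals and 7 in 1. The 22 made up 59.5% (95% Wilson interval 43.5% to 73.7%, counting error only), against 43.6% of all regions of the series. The background share lies just inside that interval. Among the 8 regions of 2 animals, 6 came from replicates 1 and 2 and the other 2 from replicates 2 and 3. The 7 regions of a single animal were 3 in replicate 1 and 4 in replicate 2, with 0 in replicate 3. The list of replicate 3 was the shortest, and the same split over all regions of the series is not given. Every locus had at least 2 regions common to all animals. Nr4a1 had 8 regions in all, the most of the 7 loci, and Egr2 and Nr4a3 had 3 each. At Egr2 all 3 regions were held by every animal.

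**Figure D1:**
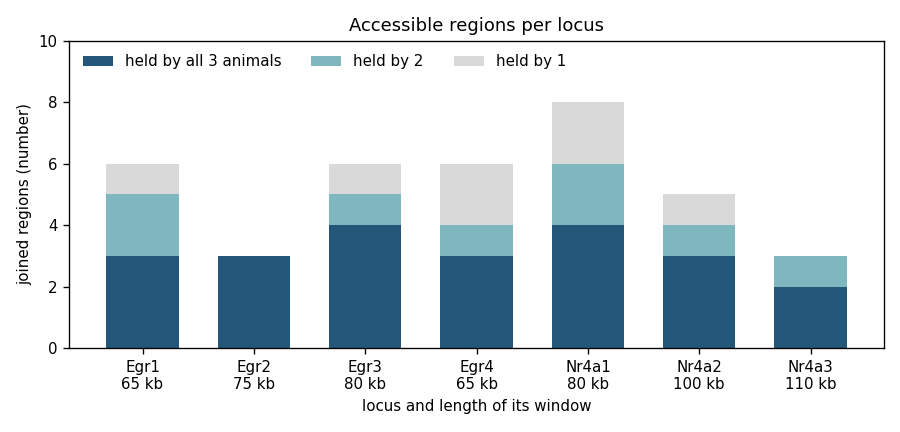
Number of joined regions (vertical axis) at each of the 7 loci, with the length of each window in kb below its name. Dark bars are regions held by all 3 animals (2 at Nr4a3 to 4 at Egr3 and Nr4a1), and lighter parts are those held by 2 or by 1.

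The 4 Egr windows together held 13 regions common to all animals in 285 kb, and the 3 Nr4a windows held 9 in 290 kb. These are 4.56 and 3.10 per 100 kb. No density of common regions over the series is given beside them. The contrast did not hold with an overlap of 50% of both peaks required. The common regions then numbered 3, 1, 2 and 2 at Egr1, Egr2, Egr3 and Egr4. They numbered 4, 3 and 1 at Nr4a1, Nr4a2 and Nr4a3. The lowest density was that of Nr4a3, with 2 common regions in 110 kb, and Egr3 and Nr4a1 had the highest number with 4 in 80 kb each. Long stretches without a called peak separated the regions. At Nr4a3 no animal had a peak over the last 50.004 kb of the window, and at Egr2 none had a peak over the first 39.4 kb.

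**Figure D2:**
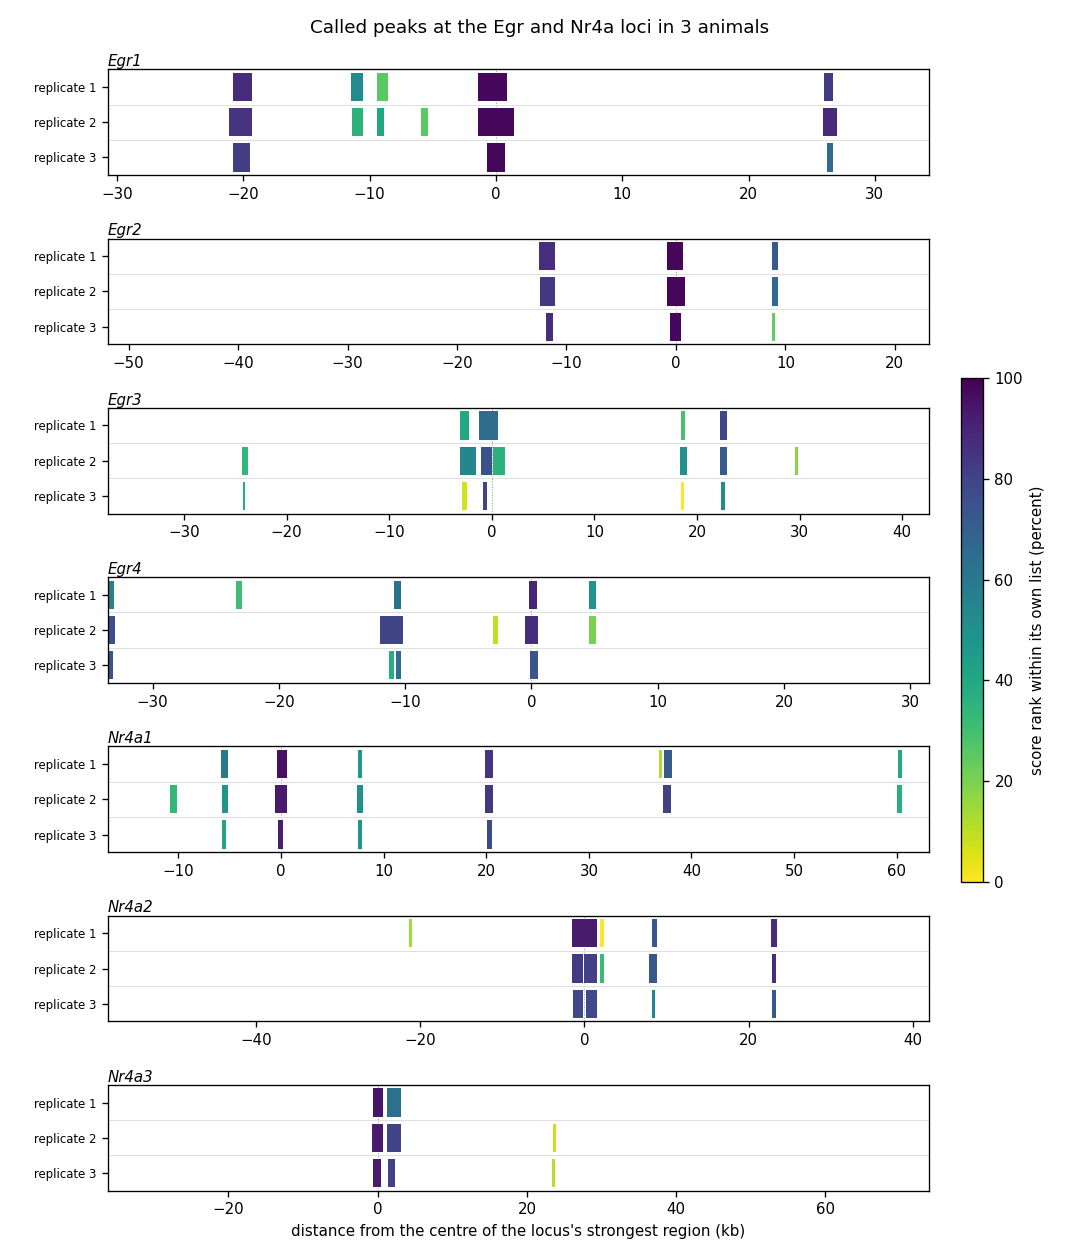
Called peaks at the 7 loci, 1 row per animal, with distance from the centre of the locus's strongest region in kb on the horizontal axis. Colour is the percentile rank of the peak's score within its own list, dark for high. The strongest regions were picked among those held by all 3 animals and set at the centre, so they line up by construction. Pale peaks, such as those left of the Egr1 centre in replicates 1 and 2, are often missing from replicate 3. The leftmost Egr4 peaks run past the edge of the window.

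The deposited score of a peak has no stated unit and no common scale across lists. Each score was therefore turned into its percentile rank within its own list, where 0 is the lowest and 100 the highest peak of that animal. The strongest region of a locus was taken as the region common to all animals with the highest mean rank. These regions were picked by their score, so their ranks are a description and were not tested.

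Egr1 and Egr2 had the highest-ranked regions, Nr4a1 and Nr4a3 came next, and Nr4a2, Egr4 and Egr3 followed. The mean rank was 98.1 ± 0.17 at Egr1 and 97.97 ± 0.27 at Egr2 (SD, n = 3 for all loci). It was 93.5 ± 2.3 at Nr4a1 and 93.1 ± 1.1 at Nr4a3. At the lower end it was 84.8 ± 7.5 at Nr4a2, 83.7 ± 8.4 at Egr4 and 73.4 ± 7.8 at Egr3. Egr1 and Egr2 overlapped in range and held the first 2 places in every animal. Their lowest rank, 97.7, lay above the highest rank of Nr4a1, 96.1. Nr4a1 and Nr4a3 overlapped in range and held places 3 and 4 in every animal. The ranges of Nr4a3 and Nr4a2 overlapped slightly, from 92.2 at the lowest of Nr4a3 to 92.9 at the highest of Nr4a2. The order of Nr4a2, Egr4 and Egr3 changed between animals, and Egr3 stood above both in replicate 3.

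**Figure D3:**
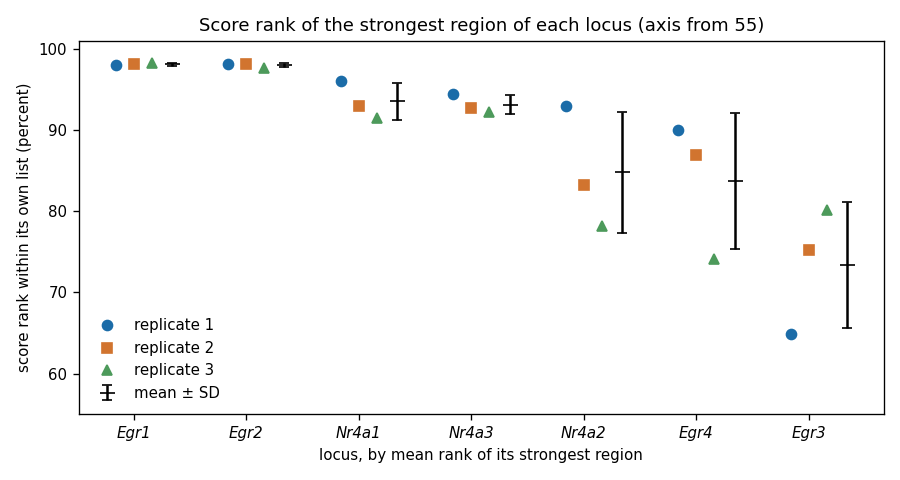
Percentile rank of the score of each locus's strongest region (vertical axis, from 55) in the 3 animals, with mean and SD at the right of each group. Egr1 and Egr2 sit between 97.7 and 98.3 in all 3 animals, while Egr3 spans 64.9 to 80.1.

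A mean rank of 90 or more was reached by 4 of the 22 common regions, against 14.9% of all common regions of the series. These 4, or 18.2%, were the strongest regions of Egr1, Egr2, Nr4a1 and Nr4a3. The share is near the background.

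At the Egr1 window, on chromosome 18 from 34990000 to 35055000, the strongest region ran from 35019271 to 35022176. Its peak scored 962 in replicate 1, 1158 in replicate 2 and 703 in replicate 3, at ranks of 97.9, 98.1 and 98.3. The ranks differed by 0.35 points between animals, the smallest range among the 22 common regions. Ranks this close to 100 have little room to rise, which limits what the small range shows. The peak was 2347, 2892 and 1449 bp wide in replicates 1, 2 and 3. The next strongest region, from 34999621 to 35001415, had ranks of 87.7, 85.1 and 82.4, below the first in every animal by a mean of 13.0 ± 2.8 points (SD, n = 3). Another common region, from 35046617 to 35047691, had ranks of 83.0 and 88.2 in replicates 1 and 2 and 65.2 in replicate 3. Between the first and the second lay 3 low-ranked regions without a peak in replicate 3. The highest of these, from 35009258 to 35010229, had ranks of 52.2 in replicate 1 and 35.8 in replicate 2. Reep2 and Etf1 are the protein-coding neighbours of Egr1 in the gene order of GRCm38, and the regions of the window were not divided between these genes.

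Egr2, best known for hindbrain patterning and for myelination by Schwann cells, had its window on chromosome 10 from 66960000 to 67035000. Its strongest region, from 67011058 to 67012721, scored 987, 1160 and 633 in replicates 1, 2 and 3, at ranks of 98.1, 98.1 and 97.7. The peak was 1472, 1664 and 988 bp wide, narrower than that of Egr1 in every animal. The next region, 11.6 kb away from start to start and running from 66999425 to 67000850, had ranks of 86.6, 83.6 and 86.8. It was therefore lower than the first in every animal. The last region, from 67020645 to 67021258, ranked 72.4 and 65.3 in replicates 1 and 2 but 23.8 in replicate 3, so that the animals disagreed on its place by 48.6 points.

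The Egr3 window lay on chromosome 14 from 70440000 to 70520000. Egr3, needed in mice for the development of muscle spindles, had the lowest-ranked leading region of the 7 loci. That region, from 70476132 to 70478693, scored 178, 284 and 207 in replicates 1, 2 and 3, at ranks of 64.9, 75.2 and 80.1. Replicate 1 had a single peak of 1871 bp there, replicate 2 had 2 peaks, of 1064 and 1205 bp, and replicate 3 had 1 peak of 379 bp. In replicate 1 another region of the window ranked higher, the one from 70499608 to 70500340 at 78.7, which ranked 71.6 in replicate 2 and 52.2 in replicate 3. No region of the Egr3 window therefore led in all 3 animals. The common region from 70495707 to 70496406 had a rank of 0.559 in replicate 3, where its score of 50.3 was close to the lowest reported score of 50. The highest region held by fewer than 3 animals, from 70453087 to 70453623, ranked 34.2 in replicate 2 and 38.1 in replicate 3.

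Egr4 had its window on chromosome 6 from 85430000 to 85495000, next to Fbxo41 in the gene order of GRCm38. The strongest region, from 85462990 to 85464068, scored 476, 478 and 172 in replicates 1, 2 and 3, at ranks of 89.95, 86.97 and 74.1. Replicate 3 stood below both other animals. The next region, from 85429742 to 85430524, began outside the window and overlapped its edge. Its ranks were 57.0, 76.1 and 74.4, so that in replicate 3 it stood marginally above the strongest region. Another common region, from 85451504 to 85453328, was a single peak of 1825 bp in replicate 2, 1 peak of 533 bp in replicate 1 and 2 peaks, of 370 and 353 bp, in replicate 3. The highest region missing in an animal ran from 85468057 to 85468673, with ranks of 48.2 in replicate 1 and 20.05 in replicate 2.

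For Nr4a1, the window lay on chromosome 15 from 101060000 to 101140000. Nr4a1 encodes the orphan nuclear receptor also called Nur77, and its protein-coding neighbours in the gene order of GRCm38 are Grasp and Atg101. The strongest region, from 101076323 to 101077418, scored 761, 696 and 355 in replicates 1, 2 and 3, at ranks of 96.1, 92.95 and 91.5. The region from 101096706 to 101097549 came next, with ranks of 85.1, 83.9 and 77.1, lower than the first in every animal by a mean of 11.5 ± 2.7 points (SD, n = 3). The common region from 101084303 to 101084841 had ranks of 46.5, 50.2 and 47.7, a range of 3.66 points. Its place was nearly the same in all 3 animals. The remaining common region, from 101071051 to 101071689, varied more, with ranks of 60.1, 47.8 and 40.4.

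One region of Nr4a1 was high in replicates 1 and 2 and had no peak in replicate 3. It ran from 101114125 to 101114943, with a score of 224 and a rank of 72.2 in replicate 1 and a score of 356 and a rank of 80.7 in replicate 2. Its peaks were 781 and 795 bp wide, nearly equal. Across the 7 windows, 14 regions had a rank of at least 70 in both replicates 1 and 2, and this was the 1 of them that replicate 3 lacked. Across the series, replicate 3 lacked 1.37% of such regions, or 229 of 16660. Read depth is unknown, so the missing peak does not show closed chromatin in that animal.

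The Nr4a2 window lay on chromosome 2 from 56910000 to 57010000. Nr4a2, also called Nurr1, is required for midbrain dopamine neurons. Its strongest region, from 56966480 to 56969618, was the widest of the 37 at 3139 bp. Replicate 1 had a single peak of 3124 bp there, with a score of 582 and a rank of 92.9. Replicate 2 had 2 peaks, of 1403 and 1623 bp, the higher at a score of 396 and a rank of 83.2. Replicate 3 also had 2 peaks, of 1258 and 1354 bp, the higher at a score of 194 and a rank of 78.2. The same stretch was thus called as 1 peak or as a pair. The next region, from 56990832 to 56991531, had ranks of 87.6, 86.9 and 72.7 and stood above the first in replicate 2. The region from 56969888 to 56970480, beside the strongest, was found in replicates 1 and 2 at ranks of 0.587 and 32.3.

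Nr4a3, also called Nor1, had its window on chromosome 4 from 48020000 to 48130000 and the fewest common regions. The strongest, from 48055438 to 48056844, scored 652, 683 and 375 in replicates 1, 2 and 3, at ranks of 94.4, 92.7 and 92.2. Its peak was 1359, 1400 and 1070 bp wide, and the SD of 180 bp was the smallest among the 7 strongest regions. The other common region, from 48057330 to 48059310, began 1.89 kb further on, with ranks of 63.6, 80.1 and 80.1. Both lay within 3.87 kb. A low region from 48079526 to 48079996 was found in replicates 2 and 3 only, at ranks of 7.97 and 10.2, and replicate 1 had no peak there.

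Width and score did not always go together. Ranking the width of each peak within its list in the same way, 3 of the 22 common regions (13.6%) had a mean width rank over 20 points above their mean score rank, against 5.08% of all common regions of the series. These were the Egr3 region from 70474279 to 70475913, with a mean gap of 49.5 points, the Nr4a3 region from 48057330 to 48059310 (22.7 points) and the Egr3 region from 70495707 to 70496406 (20.2 points). The first of these was 922, 1589 and 421 bp wide in replicates 1, 2 and 3, at score ranks of 39.9, 53.6 and 6.75. The last of them did not have the gap in every animal: in replicate 1 its width rank of 28.8 was below its score rank of 29.7. With 3 regions, the difference from the background rests on few cases. Peaks wider than 2 kb numbered 2 of 31 in replicate 1, at Egr1 and Nr4a2, against 0.998% of that list. In replicate 2 they numbered 1 of 36, at Egr1, against 1.3% of that list. Replicate 3 had 0 of 26, against 0.236% of that list, and its widest peak in the windows was the 1449 bp peak of Egr1.

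**Figure D4:**
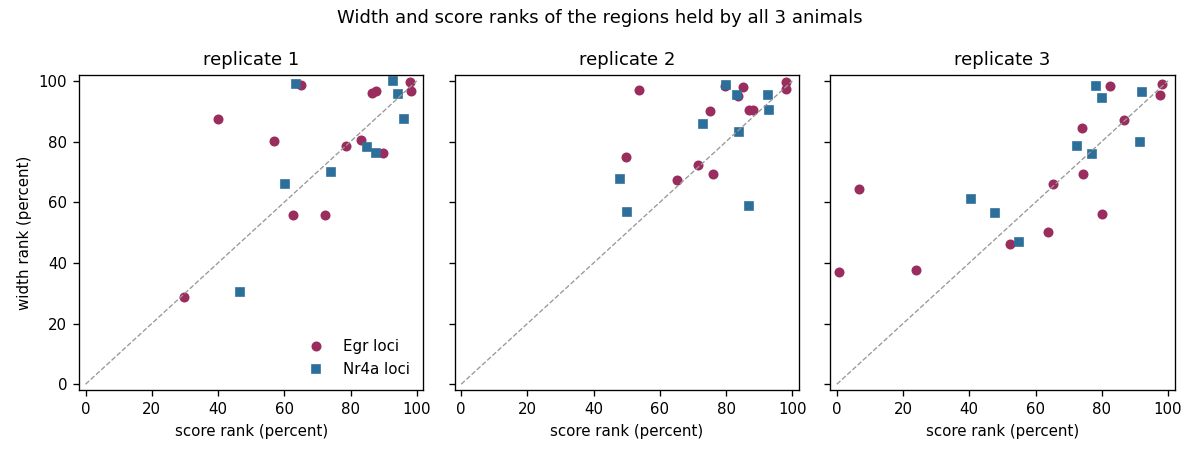
Width rank against score rank, both in percent of the animal's own list, for the 22 regions common to all animals, 1 panel per animal, with Egr loci as circles and Nr4a loci as squares. Points above the dashed line of equal ranks are wide for their score, such as the Egr3 region at a score rank of 53.6 and a width rank of 97.0 in replicate 2.

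Peaks of replicate 3 were the narrowest. In all 22 common regions its highest peak was narrower than that of replicate 1, against 93.1% of all common regions, and narrower than that of replicate 2, against 94.6%. The median width ratio of replicate 3 to replicate 1 was 0.61 in the 7 windows and 0.67 elsewhere. Relative to replicate 2 it was 0.51 in the 7 windows and 0.64 elsewhere. More than 1 peak of an animal fell in 3 of the 22 common regions, those of Egr3, Egr4 and Nr4a2 described above, against 5.71% of all common regions.

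The ranks of a common region differed between animals about as much as elsewhere. The median range over the 3 animals was 15.5 points in the 22 regions and 16.04 points in the other 36802 common regions. The mean ranks of the 22 common regions had a median of 76.7, with a range of 26.6 to 98.1, against a median of 65.4 in the other common regions. Those of the 15 regions held by fewer than 3 animals had a median of 30.5, with a range of 9.10 to 76.5, and the highest was the Nr4a1 region described above. No value over the series is given for regions held by fewer than 3 animals, so this contrast is not shown to be particular to these loci.

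Peaks of the 7 windows were then set against all other peaks, animal by animal. The share of peaks in regions common to all animals was 70.97% in the windows and 59.4% elsewhere in replicate 1. In replicate 2 it was 66.7% and 54.1%, and in replicate 3 it was 92.3% and 78.9%. The difference was 12.5 points on average. The same 22 regions supply the counted peaks of every animal, so the 3 differences are not independent of each other and no test is given for them. The difference did not hold under a stricter overlap: with 50% of both peaks required, the shares were 51.6% and 48.9% in replicate 1, 44.4% and 44.8% in replicate 2, and 61.5% and 63.1% in replicate 3.

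The median score rank of the peaks in the windows was 64.9 in replicate 1, 72.3 in replicate 2 and 73.4 in replicate 3, where the median of all other peaks was 49.99 in each by construction. The ranks of all peaks and the densities were tested with an exact two-sided paired sign-flip permutation test over the animals. Its smallest p with 3 animals is 0.25, which it returns whenever all 3 differences have the same sign, so it could not decide here. The windows are the same in every animal, so the test covers the animals and not the choice of loci. Regions common to all animals supplied 22 of 31, 24 of 36 and 24 of 26 of the window peaks in replicates 1, 2 and 3. The tested differences are therefore not independent between animals either. The difference in median score rank was 20.2 ± 4.6 points (SD, n = 3, exact permutation p = 0.25), in 3 of 3 animals. Restricted to regions common to all animals, the medians were 80.9, 80.4 and 74.3 in the windows and 69.5, 72.0 and 59.99 elsewhere. That difference was 11.3 ± 3.0 points (SD, n = 3). The same common regions supply these peaks in every animal, so no test is given for it. Peak density was 53.9, 62.6 and 45.2 per Mb in the windows, against 27.5, 29.9 and 21.6 per Mb on the rest of the same chromosomes. The ratio was 2.05 ± 0.08 (SD, n = 3, exact permutation p = 0.25). The windows were laid round genes and the rest includes sequence far from genes, so the part of gene density in these differences was not tested. Peaks covered 5.10%, 6.23% and 2.82% of the windows in replicates 1, 2 and 3.

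**Figure D5:**
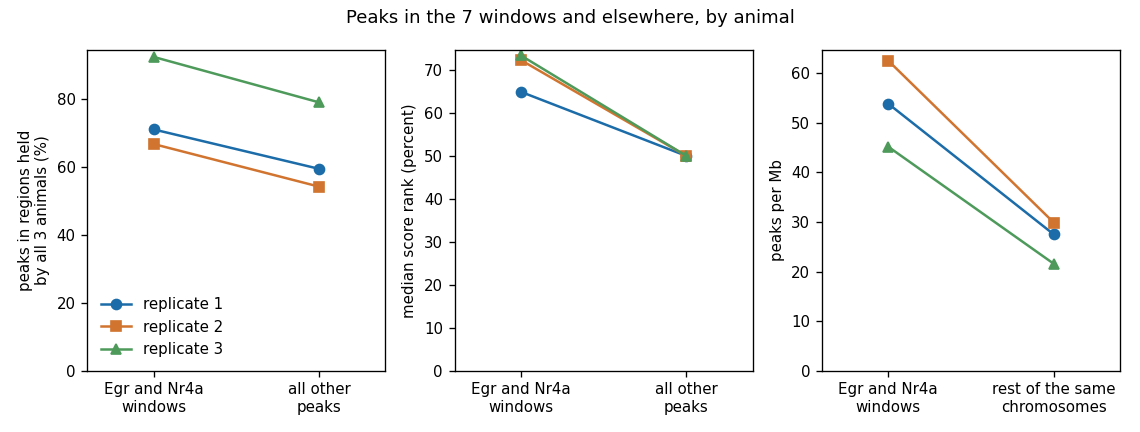
Share of peaks in regions common to all animals, median score rank, and peaks per Mb in the Egr and Nr4a windows (left of each panel) and in all other peaks or the rest of the same chromosomes (right), with 1 line per animal. All 3 animals are higher in the windows, by a mean of 12.5 points, 20.2 points and 2.05 times.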

How the data were processed

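ATAC-seq libraries of 3 mouse dentate gyri were analysed. The submitters' processing notes name the aligner Bowtie2 and the build mm9. The authors deposited 1 peak list per sample, with peak names in the form MACS uses and a score per peak. The score has no unit in the deposited files, and its lowest value was 50. Not given in the sources used here are versions, peak settings, duplicate handling and any Tn5 shift. The lists hold no read counts, so depth is unknown and only the number of animals sets the precision.

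From these lists, the 7 windows were read from the definition of the loci, peaks overlapping by at least 1 bp across lists were joined, and scores and widths were ranked within each list, ties at their mean rank. A peak counts as found in both other animals if its region holds peaks of all 3. Positions are mm9, counted from 1. The gene table and promoters are RefSeq, GRCm38.p6, and were used for gene order and sequence only. The loci, windows and motifs were chosen with earlier results of these data known. Each gene was to be described by its strongest region, the next strongest common one, and the strongest held by fewer than 3 animals; any further region was picked with its values in view. Intervals given for shares are Wilson intervals at 95%. The alternatives took the highest-scoring 50% of the peaks, a 50% reciprocal overlap, equal numbers of peaks (48769), windows narrowed by 10 kb on each side, ranks by width, chromosomes 1 to 19 alone, a promoter stretch of 150 bases, and leaving out each replicate. Joining, ranking and the permutation test were tested on simulated lists. The tools were matplotlib 3.10.9, scipy 1.17.1, pandas 2.3.3, numpy 2.4.6 and Python 3.11.15.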

Additional observations from a re-analysis of the deposited data

How the results depend on the processing

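Of 141 alternative values for 34 results, 127 kept their direction or stayed within the spread between animals, the counting interval or 1.5 times the count, and 14 moved beyond it. Among the 127 is the share of peaks in common regions under a reciprocal overlap of 50%, 52.5% on average, whose difference from all other peaks stayed above 0 in the mean but was below 0 in replicates 2 and 3. The share of regions common to all animals was 34.04% under a reciprocal overlap of 50%, against 32.5% of all regions under the same rule, where the count was 16. It was 73.9% in the highest-scoring 50% of each list, against 50.4% of all regions. Leaving out 1 replicate gave 64.7% to 75.7%: 69.4% without replicate 1, 64.7% without replicate 2 and 75.7% without replicate 3, against 52.5%, 54.2% and 65.2% of all regions under the same rule. Without replicate 3, Egr1 had 5 common regions. Under the reciprocal overlap, Egr2 had 1, Egr3 had 2 and Nr4a3 had 1. Ranked by width, the strongest regions stood at 99.4 for Egr1, 97.9 for Nr4a2, 96.5 for Egr2, 95.8 for Nr4a3, 85.97 for Nr4a1, 83.7 for Egr4 and 81.6 for Egr3. TATAAA matched in 0 genes within 150 bases upstream. No analysis paired between groups was possible because no second group shares the replicate numbers, so a replicate block between groups could not be fitted. The windows and the other peaks were compared within each animal. Depth is unknown, so a missing peak is not shown to be closed chromatin, and the deposited score limits every rank.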

Other observations

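The stretch before the Nr4a2 regions held no peak in any animal over 488 kb, from 56459107 to 56946718 on chromosome 2 (mm9), of which 36.7 kb lay in the window. This stretch was chosen with its length already known. Among all 84508 distances between neighbouring regions of a chromosome, 137 (0.162%) were as long or longer, and the median was 15.0 kb. The peak that ends the stretch was called in replicate 1 alone, at a rank of 14.5, so in replicates 2 and 3 the peakless stretch ran on to the strongest Nr4a2 region. The region before the stretch, from 56458849 to 56459106, was also called in 1 animal alone, so in the other animals the stretch began earlier. Assembly gaps and repeats in it were not examined.

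On the other side of the Nr4a2 window, the nearest region began 0.381 kb beyond the edge, and at Nr4a1 the nearest one after the window began 1.44 kb beyond it. Of the 14 nearest regions outside the 7 windows, 4 were common to all animals, against 43.6% of all regions of the series. They were the one before Nr4a1, those before and after Nr4a3, and the one after Egr4. The count is small and was not tested.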
